A study of Mus musculus with 4 samples.

Results

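Mesothelial cells are the flat cells that line the peritoneal cavity. Described here are 10 genes of surface ligands that stimulate or restrain immune cells, found by gene symbol in the deposited table of 48425 genes. They are Cd274, Pdcd1lg2, Cd80, Cd86, Cd276, Vtcn1, Icosl, Pvr, Cd200 and Cd47, and all 10 had a row. RNA was measured in 4 libraries of 1 group, each from a separate C57BL/6 mouse aged 10 weeks. The libraries are labelled WT (wild type), with no treatment, no engineered allele and no sex given. Cells were detached with trypsin inside the cavity and sorted as CD45-, PDPN+ and GPM6a+, then used fresh. There is no second condition, so levels were compared with a fixed threshold, with each other within an animal, and between animals.

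T cells need a second signal beside the antigen. CD80 and CD86 give it through CD28 and also bind the inhibitory receptor CTLA-4, and ICOSL gives a related signal through ICOS. PD-L1 (Cd274) and PD-L2 (Pdcd1lg2) engage the inhibitory receptor PD-1. B7-H3 (Cd276) and B7-H4 (Vtcn1) are B7 relatives known mainly as inhibitors of T cells. The poliovirus receptor Pvr is bound by the activating receptor CD226 and by the inhibitory receptors TIGIT and CD96. CD200 restrains myeloid cells through CD200R, and CD47 restrains phagocytosis through SIRPA.

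The libraries held 4090224 to 4569578 estimated counts. Levels are CPM, the deposited value over its column sum times 1000000, as mean ± SD (n = 4). For a gene without a read, the limit is set at 3 counts, or 0.657 to 0.733 CPM in a single library and 0.171 CPM over the 4 libraries. These limits and the intervals below cover counting error only. In the check of the label, 13 of 13 mesothelial markers lay above 1 CPM, but so did 9 of 10 fibroblast markers. The mesothelial list includes Pdpn and Gpm6a, the genes of the proteins used in the sort, which are no independent check. The mesothelial markers with the highest mean CPM were Upk3b at 4135 ± 236 CPM, Krt19 at 2299.6 ± 954 CPM and Msln at 2257 ± 393 CPM. In bulk RNA, fewer cells of a type and less RNA per cell cannot be told apart.

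Upstream sequence is shown for 3 ligand genes: the most abundant one, Cd200, and the neighbours Cd274 and Pdcd1lg2, which lie in tandem on chromosome 19 and differ in level. Each is the 250 bases before the RefSeq start (GRCm38.p6), printed 5′ to 3′ on the gene's strand. Capitals mark a GC box (GGGCGG) in Cd200 and Cd274 and a match to an NF-kappaB core on the other strand in Pdcd1lg2. The positions are chr16:45409054-45409303 (minus strand) for Cd200, chr19:29367188-29367437 (plus) for Cd274 and chr19:29410669-29410918 (plus) for Pdcd1lg2.
Cd200: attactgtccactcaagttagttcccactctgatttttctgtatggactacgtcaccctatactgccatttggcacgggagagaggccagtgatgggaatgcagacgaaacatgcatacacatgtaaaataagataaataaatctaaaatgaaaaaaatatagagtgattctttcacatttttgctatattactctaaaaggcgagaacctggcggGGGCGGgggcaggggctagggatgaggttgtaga
Cd274: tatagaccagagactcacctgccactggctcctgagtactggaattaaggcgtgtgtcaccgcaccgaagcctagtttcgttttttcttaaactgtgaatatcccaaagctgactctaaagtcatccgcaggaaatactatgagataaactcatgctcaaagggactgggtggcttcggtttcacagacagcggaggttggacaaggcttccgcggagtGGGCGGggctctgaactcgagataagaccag
Pdcd1lg2: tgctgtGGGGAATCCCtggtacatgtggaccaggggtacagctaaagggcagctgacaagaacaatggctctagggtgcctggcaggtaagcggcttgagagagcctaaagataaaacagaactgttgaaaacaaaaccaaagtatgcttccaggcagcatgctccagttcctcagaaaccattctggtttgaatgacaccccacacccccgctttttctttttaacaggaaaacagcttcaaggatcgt

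The GC box begins 34 bases before the start in Cd200 and 31 bases before it in Cd274. Windows were found for 8 of the 10 genes. Among the 6 of them above 1 CPM, 5 held a GC box on either strand, the exception being Vtcn1, and of the other 2 (Cd80 and Pdcd1lg2) 0 held one. Of 32851 RefSeq windows of this length, 32.7% held it. The windows of Cd276, Cd47 and Cd80 lie inside the gene as annotated by GENCODE, which places the first start further upstream. The NF-kappaB core was found in 5.30% of windows. An interferon response core (in 2.98% of windows), a STAT site (TTCNNNGAA, in 7.02%) and a TATA box (TATAAA, in 12.4%) had no match in the windows of these 8 genes. CCAAT was found for Cd276 and Icosl and in 33.8% of all windows. All searches covered both strands, and a match is a description of letters, not of binding.

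Of the 10 ligand genes, 7 passed a one-sided quasi-likelihood test against 1 CPM in edgeR (adjusted p under 0.05 over all genes of the table). By the same test 24.7% of all genes and 50.9% of protein-coding genes were called. The median of the members' mean levels was 27.4 CPM, against 0 over all genes and 2.88 CPM over protein-coding genes. The genes above the threshold were Cd200, Cd47, Icosl, Vtcn1, Cd274, Pvr and Cd276. Cd86, Cd80 and Pdcd1lg2 were not. The sorted cells held RNA of CD200, CD47, ICOSL and PD-L1, with 3 rounded counts in all for the ligands of CD28 and none for PD-L2.

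**Figure D1:**
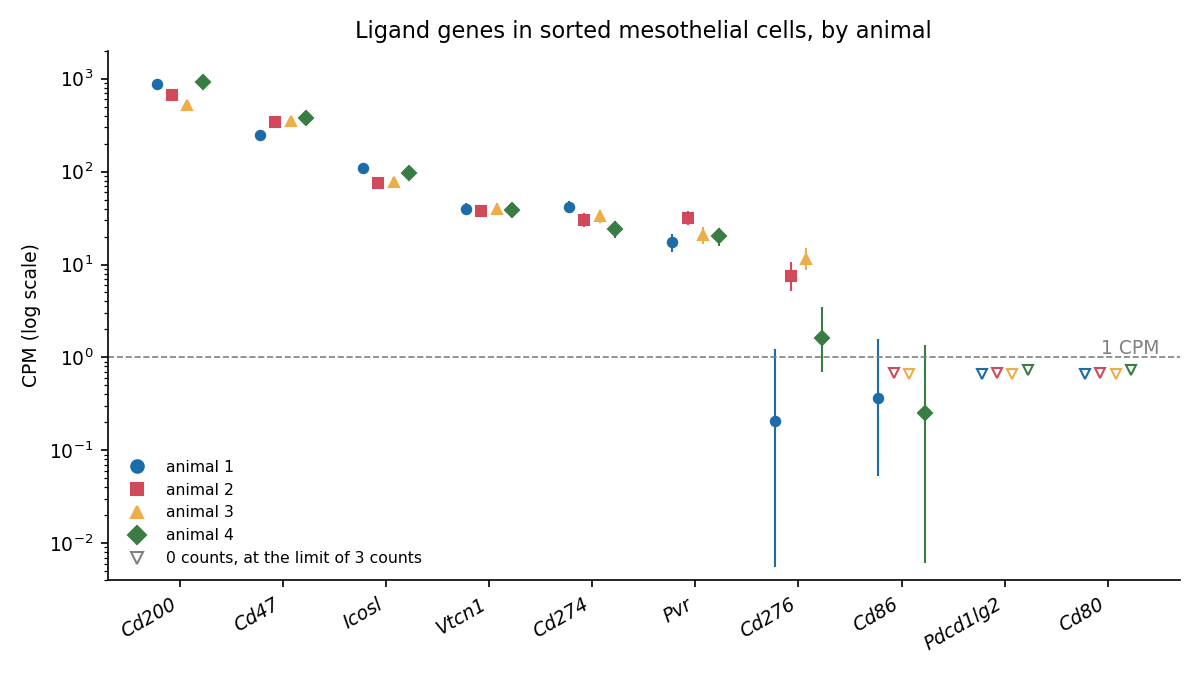
CPM (log axis) of each ligand gene in animals 1 to 4. Bars are exact 95% Poisson intervals of the rounded count, open triangles are libraries at 0 drawn at the limit of 3 counts, and the dashed line is 1 CPM. Cd200 lies at 517 CPM or more in each animal, Cd276 spans 0.205 to 11.6 CPM, and Cd80 and Pdcd1lg2 have no read.

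Cd200 was the most abundant of these genes. The gene lies on chromosome 16 at 45382135 to 45409053 (GRCm38, minus strand). Animals 1 to 4 had 882, 665, 517 and 922 CPM, a mean of 746 ± 190 CPM (edgeR adjusted p = 1.82e-34 against 1 CPM). Animals 1 and 4 were high and animal 3 was low, and the counting intervals of the highest and lowest, 893 to 952 CPM and 496 to 538 CPM, lay far apart. It ranked 177 among 48425 genes by mean CPM and 254 among 21429 genes per kb of transcript. Endothelial cells are a known source of CD200. Of 11 endothelial markers 2, Kdr and Tek, lay above 1 CPM, and without animal 4 only Kdr did. The list summed to 45.9, 70.3, 35.6 and 64.1 CPM in animals 1 to 4, of which Kdr gave 41.0, 66.3, 34.8 and 54.9 CPM. Pecam1 had 0.940 ± 0.954 CPM, and the endothelial genes Cdh5, Cldn5, Emcn and Lyve1 had no count in any library. The part of endothelial RNA in the Cd200 level was not tested.

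Cd47, on chromosome 16 at 49800533 to 49915010 (plus strand), came next. Its levels were 250.3, 339, 353 and 373 CPM, a mean of 329 ± 54.3 CPM (edgeR adjusted p = 1.16e-31). Animal 1 was the lowest and the other 3 lay close together. It ranked 455 by mean CPM, but 1187 among 21429 genes per kb of transcript. All 9 genes in the list of CD47 partners lay above 1 CPM in edgeR, where 50.9% of protein-coding genes did. The count was 8 in limma with voom weights and 8 in edgeR without animal 3. The 3 with the highest mean CPM, which is not an order per length, were Bnip3, a mitochondrial protein, at 369 ± 169 CPM and the integrin chains Itgb1 at 157 ± 36.4 CPM and Itgav at 63.5 ± 11.0 CPM. The enzyme that matures the SIRPA binding site of CD47 is encoded by Qpctl, named after its values were seen, and it had 20.4 ± 7.82 CPM.

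Icosl, on chromosome 10 at 78069302 to 78083913 (plus strand), was the leading ligand of the CD28 family of receptors. It had 110.2, 75.3, 78.1 and 95.5 CPM in animals 1 to 4, a mean of 89.8 ± 16.3 CPM (edgeR adjusted p = 1.19e-25). Animal 1 was the highest and animals 2 and 3 were the lowest. The intervals of animals 1 and 2, 101 to 120.4 CPM and 67.3 to 83.8 CPM, did not overlap. One Icosl transcript shares stretches of at least 100 bases with 389 other genes, at 91.2% identity or less, and none reached 95%.

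Cd80 and Cd86, the ligands of CD28 itself, were at the limit of detection. Cd80, on chromosome 16 at 38455561 to 38496335, had no read in any library. Cd86, on chromosome 16 at 36603869 to 36666081, had 0.366, 0, 0 and 0.254 CPM, which is 3 rounded counts in all, split between animals 1 and 4. Over the 4 libraries those 3 counts give a level of at most 0.499 CPM (exact 95% Poisson bound), below the threshold of 1 CPM. Ptprc, the gene of the CD45 antigen that the sort excluded, had 3.05, 0, 0.187 and 0 CPM in animals 1 to 4. Of 42 markers of dendritic cells, macrophages, B cells and T or NK cells, 4 (Zbtb46, Csf1r, Cd14 and Cd68) lay above 1 CPM. All 42 summed to 142.4, 112.8, 117.5 and 127.5 CPM in animals 1 to 4. Cd14 had 52.5 ± 13.1 CPM, Csf1r 34.5 ± 5.22 CPM, Zbtb46 12.6 ± 6.20 CPM and Cd68 12.5 ± 5.23 CPM. The other 38, low by this choice, summed to 36.6, 6.73, 4.10 and 4.19 CPM in animals 1 to 4. Of these, 12 were at 0 throughout, among them Itgam, Timd4, Cd209a and Clec9a. Ccr7, of the dendritic list, had a mean of 0.211 CPM. Of the 12 T and NK cell markers 0 passed in edgeR (0 at unadjusted p under 0.05, 0 by limma and 0 by DESeq2), with means of 0.259 CPM for Lck and 0.249 CPM for Cd2. The part of leukocyte RNA in the Cd86 reads was not tested.

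The ligands of PD-1 differed. Cd274 had 41.7, 30.5, 33.0 and 24.04 CPM, a mean of 32.3 ± 7.30 CPM (edgeR adjusted p = 8.09e-20), on chromosome 19 at 29367455 to 29388095. Animal 1 was the highest and animal 4 the lowest, and their ratio was 1.74 (95% interval 1.35 to 2.24 from the counts). Pdcd1lg2 lies 22823 bases further on the same strand, at 29410919 to 29471161, and had no read in any library. Per kb of the longest coding transcript, Cd274 was 90.4-fold higher than Pdcd1lg2 would be at 3 counts over the group. Against Cd80, on the same reckoning, Cd274 was 166-fold higher. Neither fold is a lower bound, since both depend on the length and limit used. The coding transcripts of Cd80 average 1874 bases, against 3173 for the longest. The exact 95% Poisson bound for 0 counts over the group is 0.210 CPM, above the 0.171 CPM of 3 counts. A list of genes that carry or restrain signals to Cd274, such as that of interferon-gamma, or that bind or modify PD-L1 held 18 genes. Of these, 17 lay above 1 CPM, where 50.9% of protein-coding genes did. The 3 with the highest mean CPM were Socs3 at 245 ± 27.0 CPM, Irf1 at 207 ± 71.6 CPM and Ifngr1 at 189 ± 76.9 CPM, at 95.9, 96.9 and 89.6 CPM per kb. The exception was Socs1, which like Socs3 belongs to a family of feedback inhibitors, at 0.277 ± 0.335 CPM. Cmtm6, named after its values were seen, encodes a protein that keeps PD-L1 at the cell surface and had 55.5 ± 5.37 CPM.

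Vtcn1 and Cd276, the other B7 relatives, differed in steadiness. Vtcn1, on chromosome 3 at 100825459 to 100896922 (plus strand), had 39.4, 37.9, 39.2 and 38.7 CPM, a mean of 38.8 ± 0.666 CPM (edgeR adjusted p = 1.63e-21). The 4 animals were level, and each interval, such as 33.8 to 45.6 CPM in animal 1, covered all 4 values. Cd276, on chromosome 9 at 58524298 to 58555437 (minus strand), had 0.205, 7.55, 11.6 and 1.62 CPM, a mean of 5.24 ± 5.30 CPM. These were 1, 33, 53 and 7 rounded counts, so animals 2 and 3 were high and animals 1 and 4 low. Animal 3 exceeded animal 1 by 53.2-fold (95% interval 9.14 to 2139.5 from the counts). Cd276 passed in edgeR (adjusted p = 5.2e-05) but not in limma with voom weights, where 6 of the 10 genes and 23.7% of all genes passed and the adjusted p of Cd276 was 0.471. Without animal 3 its mean fell to 3.12 CPM and its edgeR adjusted p was 0.0269.

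The fibroblast markers' summed level, most of it Dcn, was also higher in animals 2 and 3. It was 15100.2, 22467, 19829 and 14828 CPM in animals 1 to 4. Of the 10 markers, 9 passed and none was at 0. Those with the highest means were the collagen-binding proteoglycan Dcn at 12889 ± 2116 CPM and the collagen chain genes Col3a1 (2741 ± 917 CPM) and Col1a2 (1141 ± 359.5 CPM). Of the 10 fibroblast markers, 7 were higher in both animals 2 and 3 than in animals 1 and 4, and Lum, Pdgfra and Thy1 were not. Thy1 was lowest in animal 2, at 31.2, 10.5, 30.4 and 33.8 CPM. The same pattern held for 7 of 13 mesothelial markers, among them Krt19 at 1749, 3119.9, 3091 and 1239 CPM, so it was not limited to fibroblast genes. Among all genes above 1 CPM, 26.9% had it. The mesothelial list summed to 16305 to 18303 CPM. This pattern was looked for after the Cd276 values were seen, and the part of fibroblast RNA in the Cd276 level was not tested.

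Pvr, on chromosome 7 at 19903578 to 19921160 (minus strand), had 17.3, 31.6, 20.6 and 20.1 CPM, a mean of 22.4 ± 6.28 CPM (edgeR adjusted p = 2.51e-17). Animal 2 stood above the other 3, with an interval of 26.5 to 37.3 CPM against 13.7 to 21.5 CPM in animal 1. Nectin2, whose protein shares the receptors CD226 and TIGIT with PVR, stood at 95.2 ± 12.9 CPM. Per kb of transcript, Pvr was lower than Nectin2 by -2.18 on the log2 scale (SE 0.203), in 4 of 4 animals.

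Levels of different genes compare only per transcript length, and the order was then the same as by CPM from Cd200 to Pvr. Per kb of the longest coding transcript, Cd200 stood at 318 ± 80.9 CPM, Cd47 at 62.7 ± 10.3, Icosl at 31.9 ± 5.79 and Vtcn1 at 14.8 ± 0.254. Cd274 followed at 8.92 ± 2.01 CPM per kb, Pvr at 7.71 ± 2.16, Cd276 at 1.46 ± 1.47 and Cd86 at 0.0611 ± 0.0728. Cd200 alone made up 71.4% of the summed CPM per kb of the 10 genes, and between 63.0% and 75.9% within each animal. This share depends on the length used. The longest coding transcript of Cd47 has 5250 bases, but its coding transcripts average 1737 bases, against 2347 and 2216 for Cd200. From Cd200 down to Cd274, no 2 neighbours overlapped in their animals' values. Cd274 and Pvr overlapped, with Cd274 higher in 2 of 4 animals and a log2 difference of 0.21 (SD 0.56, exact two-sided sign-flip permutation p = 0.75). Pvr and Cd276 did not overlap, whereas Cd276 and Cd86 did.

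**Figure D2:**
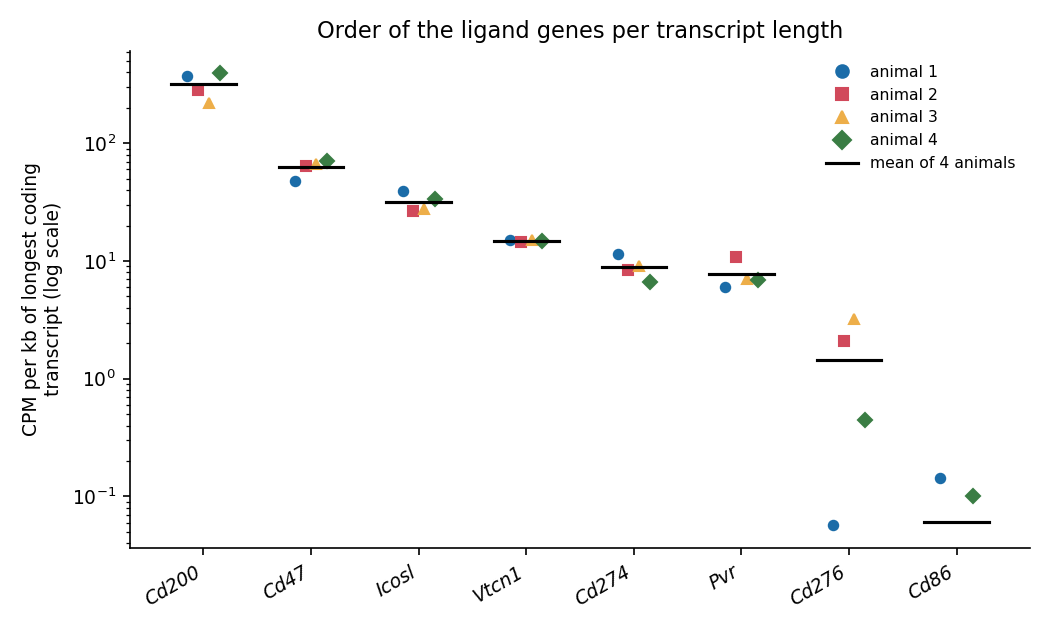
CPM per kb of the longest coding transcript (log axis) for the 8 ligand genes with a read, in order of the mean. Points are animals and black lines the mean of 4 animals, and the values of 0 for Cd86 in animals 2 and 3 cannot be drawn on a log axis. Neighbouring genes from Cd200 to Cd274 do not overlap, and Cd274 and Pvr do.

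The 10 pairs of genes compared within an animal could not reach p under 0.05, since the smallest two-sided p of the exact sign-flip test with 4 animals is 1 in 8. For Cd80 against Cd86 both levels were under the limit of 3 counts and no direction is given. The other 9 pairs had 1 direction in 4 of 4 animals, each at that smallest p. Cd47 was lower than Cd200 per kb by -2.32 on the log2 scale (SE 0.267), and by -1.16 without division by length. Cd276 was lower than Vtcn1 by -3.96 (SE 0.942) and lower than Cd274 by -3.20 (SE 0.999). Cd200 exceeded Cd274 by 5.12 (SE 0.267).

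The spread between animals differed from gene to gene. The coefficient of variation (CV, SD over mean) was 25.4% for Cd200 and 16.5% for Cd47, where the median of 1609 genes with a mean of 100 to 1000 CPM was 14.6%. It was 22.6% for Cd274, 18.2% for Icosl and 28.0% for Pvr, where the median of 7054 genes at 10 to 100 CPM was 25.0%. Vtcn1 in the same class had a CV of 1.71%, below the 7.65% that counting error alone gives at its mean count, and 4.997% with TMM factors. Cd276 had a CV of 101%, where the median of 4929 genes at 1 to 10 CPM was 54.3%. The CV of Cd276 was above that of 87.6% of its class.

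**Figure D3:**
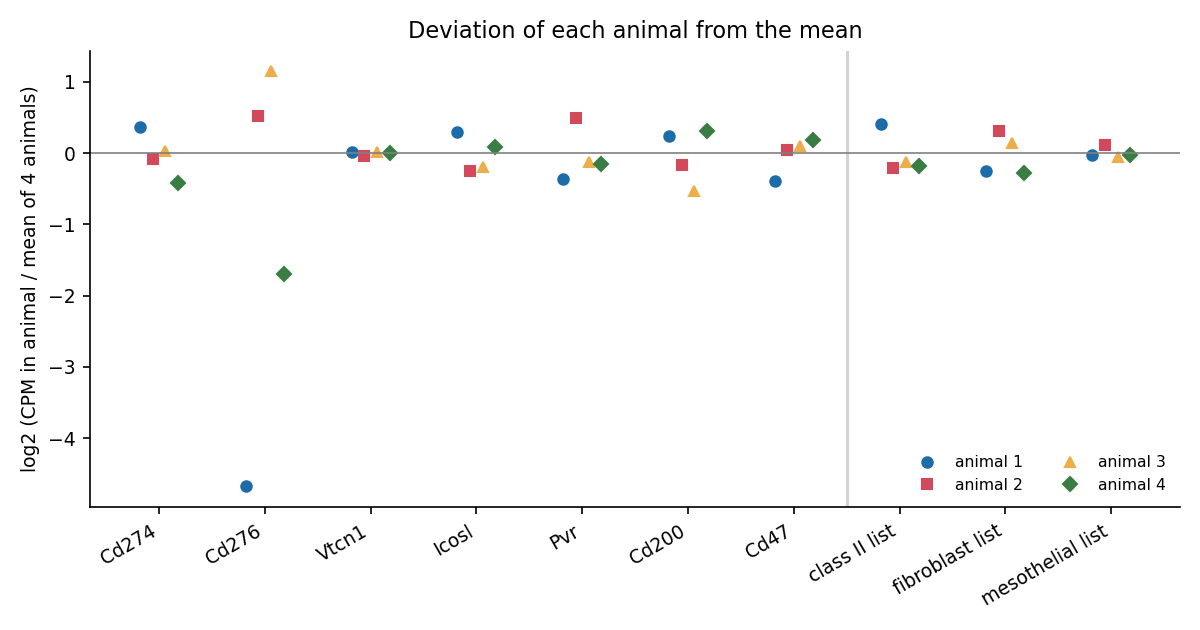
log2 of each animal's CPM over the mean of 4 animals, for the 7 ligand genes above 1 CPM and, right of the grey line, for the summed class II, fibroblast and mesothelial lists. Animals 2 and 3 lie above the mean for Cd276 and the fibroblast list, animal 1 is highest for Cd274, Icosl and the class II list, and Vtcn1 hardly moves.

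The ligands stood beside class II presentation genes, of which 10 of 14 (71.4%) lay above 1 CPM, where 50.9% of protein-coding genes did. The list summed to 2724 CPM in animal 1 and to 1779, 1879 and 1806 CPM in animals 2 to 4. Cd74, the invariant chain, led at 1431 ± 331 CPM, and the class II chain genes H2-Ab1 (145 to 247 CPM over the animals) and H2-Aa (165 ± 40.0 CPM) came next. Animal 1 was the highest for the class II sum, Icosl and Cd274. Of the 10 class II genes above 1 CPM, 7 were highest in animal 1, against 20.2% of all genes above 1 CPM. The regulators Ciita and Rfx5 were highest in animal 3 and Rfxank in animal 4, and Rfxank was lowest in animal 1. The B cell markers, of which 0 of 10 lay above 1 CPM in edgeR (1 at unadjusted p under 0.05, 0 by limma and 0 by DESeq2), summed to 29.4 CPM in animal 1 and to 2.20, 0.640 and 1.47 CPM in the others. Without animal 2 the count was 2 (Ighm and Igkc), and without animal 3 it was 1 (Igkc). In animal 1, Ighm had 9.74 CPM, Igkc 9.36 CPM and Cd79a, a chain of the B cell receptor complex, 5.66 CPM. In the others these 3 genes were at 0.876 CPM or less. Cd79b had 0.844 CPM in animal 1 and no count in the others, and Pax5 and Blk had no count. Without animal 1 the mean of Icosl was 83.0 CPM and that of Cd274 29.2 CPM. The part of leukocyte RNA in these levels was not tested.

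Receptors of the ligands, and relatives of these receptors, were mostly missing from the sorted cells. Of 12 such genes, among them the relatives Sirpb1a and Cd200r4, 2 lay above 1 CPM, where 50.9% of protein-coding genes did. They were Sirpa, the CD47 receptor, at 32.6 ± 8.08 CPM and Rgmb, which encodes a binding partner of PD-L2, at 8.17 ± 0.833 CPM. Cd200r4, at 0.967 ± 1.19 CPM, did not pass. Pdcd1, Cd28, Ctla4 and Sirpb1a had no count, and Icos, Cd226, Tigit, Cd96 and Cd200r1 had means of 0.0439 to 0.269 CPM. Sirpa had 36.4, 28.9, 23.5 and 41.7 CPM in animals 1 to 4, so Cd47 and Sirpa RNA were both present in each library.

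In a list of 33 other surface molecules that signal to lymphocytes or phagocytes, 19 (57.6%) lay above 1 CPM. This share was near the 50.9% of protein-coding genes called by the same test. The 3 with the highest mean CPM were galectin 3 (Lgals3), calreticulin (Calr), a signal for uptake when it reaches the surface, and the class Ib molecule H2-T23 (Qa-1), a ligand of NK receptors. They had 552 ± 44.5, 526 ± 153 and 483 ± 113 CPM, which is 389, 241 and 328 CPM per kb. Vsir, the B7 relative VISTA, was named after its values were seen and had 55.7 ± 23.4 CPM. Its mean of 11.5 CPM per kb lay between those of Vtcn1 and Cd274. The list held 8 genes with no count in any library, among them the costimulatory ligands Tnfsf4 (OX40L) and Cd70.

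**Figure D4:**
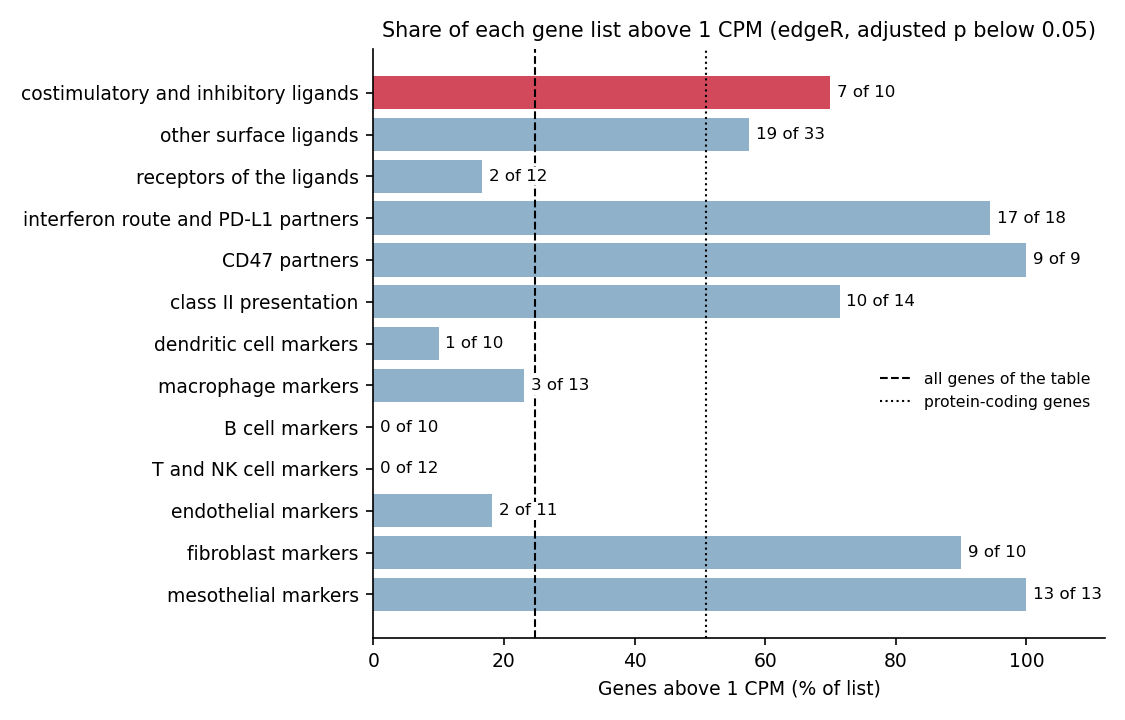
Percentage of each gene list above 1 CPM by edgeR, with the count beside each bar. The dashed line is the 24.7% of all genes and the dotted line the 50.9% of protein-coding genes. The ligands have 7 of 10, the list of receptors and their relatives 2 of 12, and the B cell and the T and NK cell markers 0.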

How the data were processed

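RNA of sorted mesothelial cells was sequenced after ribosomal RNA depletion, in 4 libraries of 1 group. Each deposited column holds estimated counts by gene symbol, judged from the values: 99.9% of those above 0 are not whole. Per the submitters' processing notes, the build was GRCm38.p5 and the tools included limma 3.38.3, edgeR 3.24.3 and kallisto 0.43.1, with no role for each. The sources used here do not give how transcripts were joined into genes, or whether strand was kept. Reads of overlapping antisense genes cannot be told apart without strand: AC119228.1 shares 511 exonic bases with Cd274, and Gm10657, listed at 0, shares 416 with Cd276.

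Estimated counts were rounded for tests. For each of 48425 genes the quasi-likelihood F statistic of edgeR 4.0.16 (R 4.3.3) tested the level against 1 CPM, one-sided, with column sums as library sizes, no filter and Benjamini-Hochberg adjustment. The packaged function refuses a design with an intercept only, so the statistic was computed from the deviances and checked against it on simulated data. In counts simulated over 48425 genes for this comparison, with a common biological CV of 42.3%, 1.5% of 200 genes at 1 CPM, 54.5% at 2 CPM and 99.5% at 4 CPM were called. Chi-square per gene between libraries was 10.7 to 26.2, so no 2 libraries differed by counting error alone. It was lowest between animals 1 and 4, at 10.7, and next between animals 2 and 3, at 15.5. All 4 were treated as replicates, which this value cannot test. Lengths and positions are from GENCODE M21 (GRCm38), promoters from RefSeq. Within-animal differences are log2 of CPM + 0.5, per kb. Members and gene lists were chosen with earlier results of these data known. All members were named, and of each other list the 3 genes with the highest mean CPM, genes of the pairs, Ptprc in the leukocyte lists, and others said to be chosen after their values were seen or given as genes at 0 or as exceptions. Alternatives were TMM and DESeq2 size factors, a minimum of 10 counts, DESeq2 1.42.0, limma 3.58.1 with voom, other lengths, other pseudocounts and each animal left out.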

Additional observations from a re-analysis of the deposited data

Results flagged for a closer look

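Among 20 sets of 4 values examined (8 ligand genes with a read and 12 list sums), 2 had a highest animal far from the others, and chance alone gives about 1 in 20. Both were in animal 1. For the summed class II list the gap to the next animal was 0.894 of the whole range, and for the summed B cell markers it was 0.946, both above Dixon's critical value for 4 samples. No ligand gene passed that value, the nearest being Pvr in animal 2 at 0.770.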

How the results depend on the processing

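No paired analysis was possible because the series has 1 group. The number of ligand genes above 1 CPM was 7 in each edgeR setting (TMM factors, DESeq2 size factors, a minimum of 10 counts, each animal left out) and by DESeq2, and 6 with voom weights in limma. Of 368 values recomputed under an alternative, 361 kept their direction and side of the threshold or moved little, and 0 reversed. This tally includes values of Cd80 and Pdcd1lg2, which without a read could not cross the threshold. Small losses in a list count were scored as moving little. With voom weights, the other surface ligands went from 19 to 17 and the class II genes from 10 to 9. The count of endothelial markers went from 2 to 1 by DESeq2, with voom weights and without animal 4, where Tek was lost. The count of B cell markers went from 0 to 2 without animal 2 (Ighm and Igkc) and to 1 without animal 3 (Igkc), and stayed at 0 without animal 1 or 4. The call of Cd276 was lost with voom weights (adjusted p = 0.471), and the CV of Vtcn1 was 4.997% with TMM factors. The size of the adjusted p also depended on the setting. For Cd200 it was 1.82e-34 in edgeR, 1.12e-15 in edgeR with a minimum of 10 counts and 7.96e-06 in limma with voom weights. The order per length was the same with the mean coding length and the exon union. Depth limits Cd80 and Pdcd1lg2, which may lie under 0.171 CPM unseen.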

Other observations

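Ligands of the NK receptor NKG2D had a low level: Ulbp1 stood at 8.55 ± 4.11 CPM and Raet1e at 3.06 ± 1.09 CPM (n = 4), and both lay above 1 CPM in edgeR (adjusted p = 8.09e-10 and 0.00263). Of the enzymes that form adenosine outside cells, Nt5e (CD73) had 17.2, 9.80, 1.59 and 7.23 CPM in animals 1 to 4, and Entpd1 (CD39) had no count. The checkpoint ligand Fgl1 had 1.04, 1.35, 7.19 and 5.86 CPM, and the tryptophan-degrading enzyme gene Ido1 had no count. Cd24a, another inhibitory signal to phagocytes, ranged from 1.86 CPM in animal 1 to 24.3 CPM in animal 3. The genes in these sentences were named after their values were seen.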
